A study of Mus musculus with 48 samples.

Results

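Ddo, Dao and Srr, the genes of D-aspartate oxidase, D-amino acid oxidase and serine racemase, were examined in the cerebral cortex of Chd8 V986*/+ and WT male mice. These were 3 of the 24444 genes in the table of expression values. Ddo was selected on measured values, because its expression was lower in Chd8 V986*/+ mice at 1 and 6 months, and Dao and Srr were added as the other enzymes of D-amino acid metabolism. RNA-seq had been performed on dissected cortex from 48 C57BL/6J mice, with 6 mice of each genotype at every age, which were E14.5, 1 month, 6 months and 12 months. The mutant mice carry 1 Chd8 allele with a stop codon at V986. One hemisphere was taken from each mouse, so each value is a mixture of all cell types of the cortex.

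D-amino acids are mirror-image forms of the common amino acids, and D-serine and D-aspartate act at NMDA-type glutamate receptors in the brain. Srr converts L-serine to D-serine, which binds the co-agonist site of these receptors. Ddo and Dao are flavin-containing oxidases of the peroxisome. Ddo degrades D-aspartate, which is abundant in the embryonic brain and scarce in the adult brain, whereas Dao degrades neutral D-amino acids such as D-serine and is known mainly from the hindbrain and cerebellum.

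In the mm9 annotation, Ddo (ENSMUSG00000063428.6) lies on the plus strand of chromosome 10 from 40349817 to 40401653. Dao (ENSMUSG00000042096.9) lies on the plus strand of chromosome 5 from 114453712 to 114475458. Srr (ENSMUSG00000001323.10) occupies bases 74719861 to 74739450 of chromosome 11, on the minus strand. No annotated gene overlapped Ddo or Dao. Of the 50-base stretches in their protein-coding transcripts, 0.323% and 0% also occurred in transcripts of other protein-coding genes, read on either strand. Srr overlapped Tsr1 and Smg6, both on the opposite strand, and 59.1% of its exon bases lay within Tsr1. Of its 50-base stretches, 24.5% also occurred in transcripts of Tsr1 or Smg6, read on either strand. The study's methods name stranded libraries and the sample labels name another kit, so it is uncertain whether reads of Srr and Tsr1 were separated by strand.

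The sequences before the start sites of Ddo and Srr, the members whose expression rose from E14.5 to 1 month in both genotypes, are shown because they differ in CpG content. Each is the 250 bases before the RefSeq start site, given 5′ to 3′ on the strand of the gene in GRCm38.p6, with CG in capitals. The Ddo sequence is at chr10:40629761-40630010 and the Srr sequence at chr11:74925949-74926198.
Ddo: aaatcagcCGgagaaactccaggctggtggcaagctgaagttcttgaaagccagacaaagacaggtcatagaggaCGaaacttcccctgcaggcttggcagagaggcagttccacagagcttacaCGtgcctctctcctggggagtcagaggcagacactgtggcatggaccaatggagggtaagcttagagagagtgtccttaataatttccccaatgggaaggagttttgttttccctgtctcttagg
Srr: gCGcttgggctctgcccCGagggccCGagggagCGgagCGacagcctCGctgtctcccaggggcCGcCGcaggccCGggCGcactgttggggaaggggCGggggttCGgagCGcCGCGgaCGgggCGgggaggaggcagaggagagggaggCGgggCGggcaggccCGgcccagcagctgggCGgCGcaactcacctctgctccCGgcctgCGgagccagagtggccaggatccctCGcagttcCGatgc
The Ddo sequence held 3 CG dinucleotides and the Srr sequence 26. Of 32851 RefSeq sequences of this length before start sites, 71.0% held 3 or more and 9.59% held 26 or more, with a median of 6. Dao has 3 such sequences, with 6, 2 and 8 CG dinucleotides.

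Expression is given as VST-normalized values, which are on a log2 scale. The most frequent value in the table, 2.1, was taken as its floor. Of all values, 6.06% lay below it, down to 1.23. Differences near the floor understate the change in RNA. Chd8, the mutated gene, served as a check of the labels. Its expression in Chd8 V986*/+ mice was 64.6%, 62.7%, 64.2% and 68.8% of WT at E14.5, 1 month, 6 months and 12 months. The genotypes did not overlap at any age. Markers of excitatory cortical neurons had a mean of 11.17 ± 0.28 (SD, n = 6) in WT cortex at E14.5 and 11.51 ± 0.14 (SD, n = 6) at 1 month. Of these markers Slc17a7, the vesicular glutamate transporter, had a mean of 9.38 in WT at E14.5 and 15.35 at 1 month.

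Ddo was expressed at a low level in the embryonic cortex and at a higher level at all postnatal ages. At E14.5, Ddo expression in WT mice ranged from 3.76 to 4.55 with a median of 4.18, and in Chd8 V986*/+ mice from 3.35 to 4.20 with a median of 3.97. The highest Chd8 V986*/+ mice lay among the WT mice. At 1 month, it ranged from 7.11 to 7.55 (median 7.32) in WT and from 6.36 to 7.02 (median 6.66) in Chd8 V986*/+ mice. At 6 months, it ranged from 7.44 to 7.90 (median 7.56) in WT and from 6.76 to 7.17 (median 7.08) in Chd8 V986*/+ mice. At both of these ages, every Chd8 V986*/+ mouse was lower than every WT mouse. The share of all genes whose genotypes did not overlap was not counted, so these values do not show how rare such a separation is. The share of all genes called by a test, a different measure, was 0.139% at 1 month and 0.0927% at 6 months. At 12 months, it ranged from 7.15 to 8.21 (median 7.47) in WT and from 6.93 to 7.40 (median 7.20) in Chd8 V986*/+ mice. WT replicates 1 and 6, at 8.10 and 8.21, stood above the other 4 WT mice of that age, and the genotypes overlapped.

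**Figure D1:**
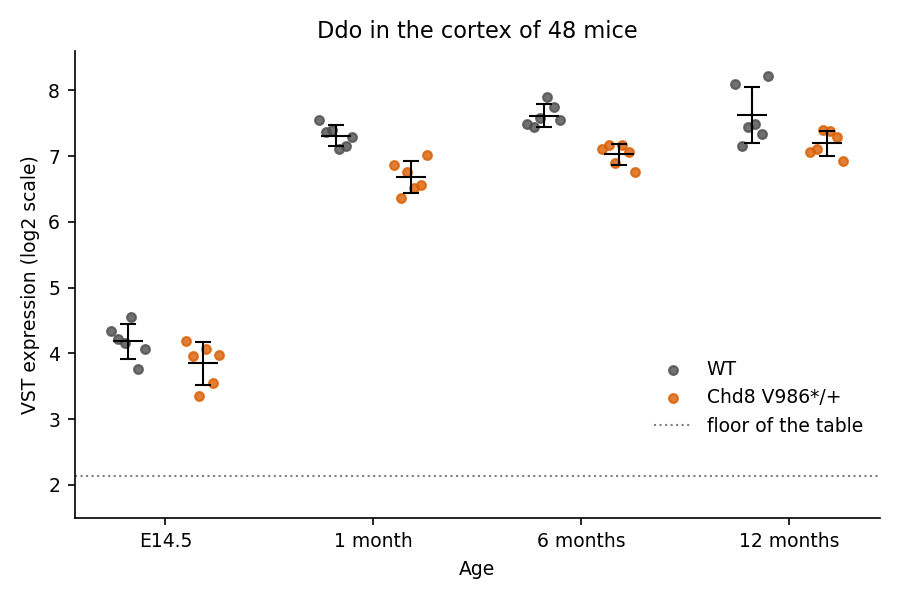
VST expression of Ddo (vertical axis, log2 scale) by age (horizontal axis) in WT and Chd8 V986*/+ cortex. Each point is 1 mouse, bars show mean ± SD of 6 mice, and the dotted line is the floor at 2.1. The genotypes do not overlap at 1 and 6 months, the ages that chose the gene.

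The differences at 1 and 6 months chose Ddo and are given as a description without a test. Mean expression was 7.31 ± 0.16 (SD, n = 6) in WT and 6.68 ± 0.24 (SD, n = 6) in Chd8 V986*/+ mice at 1 month, a log2 fold-change of −0.63, or 64.6% of WT. At 6 months, the means were 7.61 ± 0.17 (SD, n = 6) and 7.02 ± 0.16 (SD, n = 6), a log2 fold-change of −0.59, or 66.4% of WT. In bulk cortex, fewer cells that express Ddo and less Ddo RNA per cell cannot be told apart. In the deposited values, the mean over all replicates 1 to 3 equalled that over all replicates 4 to 6 for every gene, so these sets were also compared one at a time. Within replicates 1 to 3 the Ddo difference was −0.78 at 1 month and −0.45 at 6 months, and within replicates 4 to 6 it was −0.49 and −0.73. With no overlap of the mice at either age, the sign within each set was fixed by the choice of the gene.

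The ages that did not enter the choice were tested with limma at an adjusted p (adjp) below 0.1. At E14.5, Ddo expression was 4.18 ± 0.27 (SD, n = 6) in WT and 3.85 ± 0.33 (SD, n = 6) in Chd8 V986*/+ mice, and the log2 fold-change of −0.33 (standard error 0.18, limma adjp = 0.98) did not pass the threshold. Its 95% interval ran from −0.70 to 0.05, and 2 of 6 Chd8 V986*/+ mice were lower than every WT mouse. At 12 months, it was 7.62 ± 0.43 (SD, n = 6) in WT and 7.19 ± 0.19 (SD, n = 6) in Chd8 V986*/+ mice, and the log2 fold-change of −0.43 (standard error 0.16, limma adjp = 0.34) did not pass either. Its 95% interval ran from −0.77 to −0.08, and 3 of 6 Chd8 V986*/+ mice were lower than every WT mouse. Ddo was called at neither age in these fits. At E14.5, 0.00593% of 16877 tested genes were called, and at 12 months 0.0463% of 17288. These shares rest on 1 and 8 genes and were not stable, with 100 genes called at E14.5 in one fit of all samples with a replicate block, and at 12 months 251 without WT replicate 3 and 520 in one fit of all samples. The genotype difference at 12 months minus that at E14.5 was −0.10 (95% interval −0.52 to 0.32, limma adjp = 0.89), in a fit in which 0.0635% of genes were called.

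Between E14.5 and 1 month, Ddo rose in both genotypes. The log2 fold-change was 3.13 (standard error 0.15, limma adjp = 1.2e-16) in WT, an 8.74-fold increase on this scale, and 2.83 (standard error 0.14, limma adjp = 5.5e-17) in Chd8 V986*/+ mice, or 7.09-fold. In each genotype, all 6 mice at 1 month lay above all 6 embryos. These steps stand against a background in which 85.5% of genes were called in WT and 86.5% in Chd8 V986*/+ mice. From 1 to 6 months, ages whose values chose Ddo, the step was 0.35 (standard error 0.14, limma adjp = 0.085) in Chd8 V986*/+ mice, with 4 of 6 mice above all younger ones, where 21.8% of genes were called. In WT the step was 0.31 (standard error 0.15, limma adjp = 0.23), with 14.8% of genes called. No rise is read from the step in Chd8 V986*/+ mice, whose adjp below 0.1 was lost without a filter on low values (adjp = 0.11) and with the replicate number as a block (adjp = 0.12). It was also lost in 8 of 12 fits with 1 mouse left out, namely replicates 2 to 5 of 1 month and 1, 2, 4 and 5 of 6 months, with adjp of 0.10 to 0.18. From 6 to 12 months, the steps were 0.01 in WT (limma adjp = 0.99) and 0.17 in Chd8 V986*/+ mice (limma adjp = 0.66), with 0.0115% and 1.88% of genes called. The 1- and 6-month values that chose Ddo enter all of these steps.

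Ordered by mean, Ddo expression was lowest in Chd8 V986*/+ embryos, followed by WT embryos. The Chd8 V986*/+ groups at 1, 6 and 12 months came next, then the WT groups at 1, 6 and 12 months. Mice of the embryonic and postnatal groups did not overlap. Among neighbours in this order, the gap was smaller than the larger SD between the 6- and 12-month Chd8 V986*/+ groups (0.17 against 0.19), between Chd8 V986*/+ mice at 12 months and WT mice at 1 month (0.11 against 0.19), and between WT mice at 6 and 12 months (0.01 against 0.43).

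Cell type markers were compared beside Ddo. From E14.5 to 1 month in WT, the mean of 8 oligodendrocyte markers went from 6.05 to 13.27 and that of 8 astrocyte markers from 7.92 to 12.14, and their part in the rise of Ddo was not tested. Across 64 pairs of marker list and age, the genotypes did not overlap in 1, the oligodendrocyte list at 6 months. Its mean per mouse ranged from 12.41 to 12.60 (median 12.49) in WT and from 12.05 to 12.37 (median 12.32) in Chd8 V986*/+ mice, a difference of −0.23. All 8 genes of the list had lower means in Chd8 V986*/+ mice, with differences from −0.33 for Opalin to −0.10 for Mbp, the most abundant. None of the 8 was called, with a lowest limma adjp of 0.15 for Mal. Of 17256 genes tested at 6 months, 0.0927% were called and 1310 had an unadjusted p below 0.05. The count called thus does not set this list apart from other genes. The part of this list in the 6-month difference of Ddo was not tested. At 1 month, where Ddo also differed, the oligodendrocyte list differed by −0.02, and at 12 months by −0.01. Its genes differed by −0.08 to 0.04 at 1 month, with 5 of 8 lower in Chd8 V986*/+ mice. At 12 months they went both ways, from −0.32 for Mal to 0.39 for Opalin, with 3 of 8 lower.

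At E14.5, the mean of 9 midbrain and hindbrain markers ranged from 3.53 to 7.44 (median 4.79) in WT and from 3.37 to 4.40 (median 3.83) in Chd8 V986*/+ embryos. En2 was the most abundant of them. The part of these markers in the E14.5 differences of the members was not tested. Ddo was correlated with each of 16 marker lists. Over the 36 postnatal mice, after removal of group means, Ddo expression had a Pearson r of 0.55 (Spearman rho 0.49) with the astrocyte list and −0.56 (rho −0.48) with the excitatory neuron list. Without the 2 mice farthest from their group mean in Ddo, these were 0.28 and −0.24, so they rested in large part on those mice. The 2 mice were WT replicates 1 and 6 of 12 months. Their astrocyte means were 12.23 and 12.35, against 11.88 to 12.09 in the other WT mice of that age. Their excitatory neuron means were 11.12 and 11.03, against 11.41 to 11.67. The part of these markers in the 12-month Ddo values was not tested. The neuron list had an r of −0.50 (rho −0.44), or −0.18 without those 2 mice. The oligodendrocyte list had an r of 0.02 (rho −0.04), or −0.23 without them. The cortical progenitor list had an r of 0.27, or 0.37 without them, and the striatum list −0.15, or −0.33. The midbrain and hindbrain list had an r of 0.26, or 0.39 without the same mice. Of the 9 genes of the last list, 6 or 7 were below the filter on low values at the postnatal ages, so its value rests mostly on genes near the floor.

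Srr had nearly the same expression in both genotypes at every age. At E14.5 it ranged from 10.41 to 10.71 (median 10.56) in WT and from 10.48 to 10.69 (median 10.57) in Chd8 V986*/+ mice. At 1 month it ranged from 11.68 to 11.82 (median 11.72) in WT and from 11.70 to 11.77 (median 11.76) in Chd8 V986*/+ mice. The postnatal mice of both genotypes lay above every embryo. At 6 months it ranged from 11.51 to 11.65 (median 11.60) in WT and from 11.47 to 11.67 (median 11.53) in Chd8 V986*/+ mice. At 12 months it ranged from 11.36 to 11.64 (median 11.55) and from 11.43 to 11.60 (median 11.54). The genotypes overlapped at all 4 ages.

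The log2 fold-change of Srr was 0.01 at E14.5 (95% interval −0.12 to 0.14, limma adjp = 1.00), 0.01 at 1 month (−0.06 to 0.08, limma adjp = 0.97), −0.03 at 6 months (−0.12 to 0.05, limma adjp = 0.90) and 0.01 at 12 months (−0.10 to 0.13, limma adjp = 0.95). The intervals thus reach from −0.12 to 0.14. Srr expression rose from E14.5 to 1 month by 1.17 (standard error 0.05, limma adjp = 2.0e-17) in WT and by 1.17 (standard error 0.04, limma adjp = 3.8e-20) in Chd8 V986*/+ mice. From 1 to 6 months it fell by 0.15 (standard error 0.05, limma adjp = 0.067) in WT and by 0.19 (standard error 0.04, limma adjp = 0.0019) in Chd8 V986*/+ mice, and in both genotypes all 6 older mice lay below all 6 younger ones. The WT call was lost when each sample was centred on its median gene (adjp = 0.11), and without replicate 2 or 4 of 1 month or replicate 1 or 3 of 6 months (adjp of 0.13 to 0.14). From 6 to 12 months, the steps were −0.06 (limma adjp = 0.78) and −0.02 (limma adjp = 0.92). Tsr1, which overlaps Srr, moved the other way from E14.5 to 1 month, with a log2 fold-change of −0.30 (limma adjp = 0.00032) in WT.

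Dao, the D-serine oxidase, was close to the floor in the cortex at all ages. In 10 of 48 mice, its value was the lowest of their set of replicates, 2.11 in replicates 1 to 3 and 2.17 in replicates 4 to 6, whose mean is the floor. The highest value of any mouse was 4.72, in WT at 1 month. At E14.5 Dao ranged from 2.17 to 3.02 (median 2.72) in WT and from 2.17 to 3.52 (median 2.88) in Chd8 V986*/+ mice. At 1 month, the age with the highest means, it ranged from 3.13 to 4.72 (median 3.69) in WT and from 3.08 to 4.44 (median 3.29) in Chd8 V986*/+ mice. No mouse was at the floor at that age. At 6 months it ranged from 2.17 to 3.40 (median 3.15) and from 2.11 to 4.21 (median 2.92). At 12 months it ranged from 2.17 to 3.87 (median 3.05) and from 2.11 to 3.77 (median 2.47). Of the Chd8 V986*/+ mice, 2 at 6 months and 3 at 12 months were at the floor, against 1 WT mouse at each of these ages. At E14.5 it was the reverse, with 1 Chd8 V986*/+ and 2 WT embryos at the floor.

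No genotype difference of Dao passed the threshold. The log2 fold-changes were 0.30 at E14.5 (limma adjp = 0.98), −0.33 at 1 month (limma adjp = 0.78), −0.13 at 6 months (limma adjp = 0.96) and −0.29 at 12 months (limma adjp = 0.76). With 1 mouse left out, they ranged from 0.17 to 0.44, −0.53 to −0.13, −0.39 to 0.03 and −0.49 to −0.12. Within replicates 1 to 3 and 4 to 6, the difference was −0.67 and 0.02 at 1 month and −0.78 and 0.51 at 6 months. At these ages it did not hold within both sets. It kept its sign in both sets at E14.5 (0.23 and 0.36) and at 12 months (−0.41 and −0.17). The 95% interval at 12 months, the widest, ran from −1.01 to 0.44. From E14.5 to 1 month, Dao rose in WT by 1.16 (standard error 0.27, limma adjp = 0.00036), with all 6 mice above all 6 embryos. Without WT replicate 1 of 1 month, the highest mouse, the rise was 0.97 (limma adjp = 0.0016). In Chd8 V986*/+ mice the step was 0.54 (standard error 0.34, limma adjp = 0.14). With 1 mouse left out it ranged from 0.34 to 0.67, and it was called without replicate 5 of E14.5 (adjp = 0.086). The difference between these steps was not tested. From 1 to 6 months, the Dao step was −0.71 (limma adjp = 0.11) in WT and −0.51 (limma adjp = 0.35) in Chd8 V986*/+ mice. The WT step was called with the replicate number as a block (adjp = 0.096) and without replicate 2 or 6 of 1 month (−0.83 and −0.78, adjp = 0.069 and 0.097). That of Chd8 V986*/+ mice was −0.77 without replicate 5 of 6 months and −0.31 without replicate 5 of 1 month. The gaps between neighbouring groups in the order of Dao means were all smaller than the larger SD, although the WT groups of E14.5 and 1 month, which are not neighbours in it, did not overlap. For Dao and Srr, the genotype difference at 12 months did not pass the threshold against those at E14.5, 1 month or 6 months, with limma adjp of 0.64 to 0.99. In the last 2 of these comparisons 0.00578% and 0.0578% of genes were called.

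Markers of the cerebellum were compared beside Dao. The mean of 4 such genes, of which Car8 was the most abundant, ranged in WT from 3.77 to 4.32 (median 4.09) at E14.5 and from 5.34 to 8.80 (median 6.13) at 1 month. In Chd8 V986*/+ mice it ranged from 3.64 to 4.04 (median 3.88) and from 4.96 to 7.31 (median 5.85). The mice with the highest Dao value at 1 month, WT replicate 1 and Chd8 V986*/+ replicate 5, also had the highest marker mean of their groups, at 8.80 and 7.31. At 6 months, Chd8 V986*/+ replicate 5, with a Dao value of 4.21, had the highest marker mean of its group at 6.05. In 5 of 8 groups, the mouse with the highest Dao value also had the highest marker mean. In the others, WT and Chd8 V986*/+ embryos and Chd8 V986*/+ mice at 12 months, the marker mean of that mouse was 3.90, 3.64 and 4.91, among the lowest or the lowest of its group. The part of these markers in the Dao results was not tested.

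**Figure D2:**
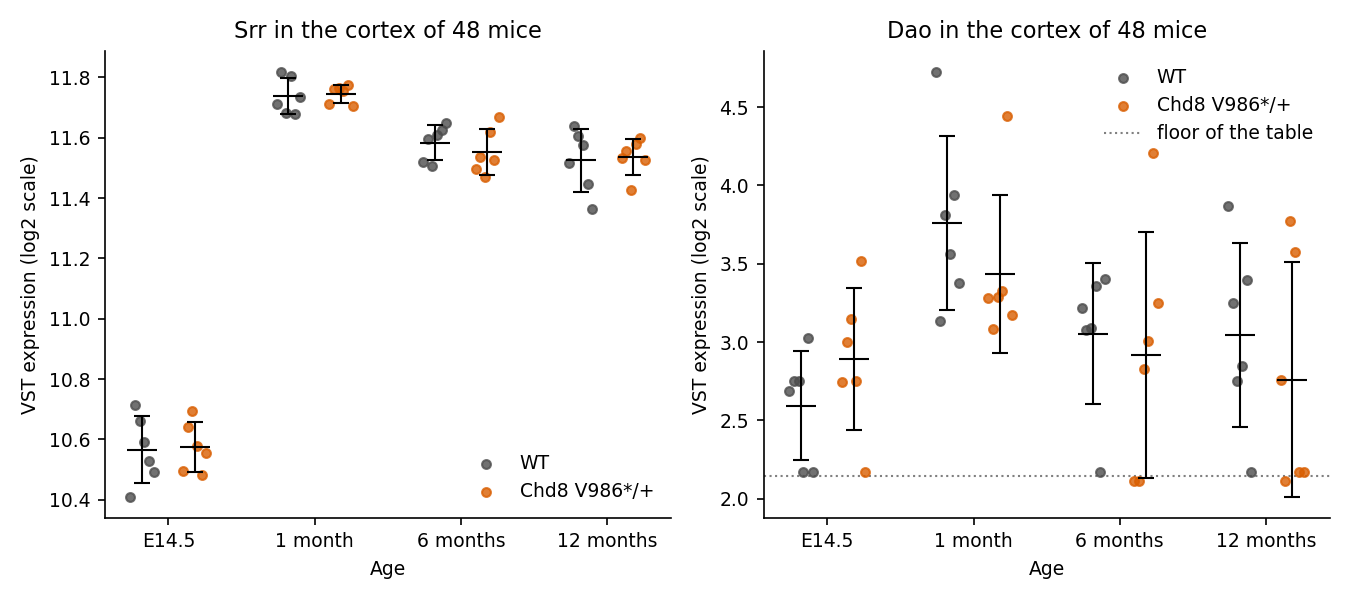
VST expression (vertical axes, log2 scale) of Srr and Dao by age in WT and Chd8 V986*/+ cortex, with 1 point per mouse and bars for mean ± SD of 6 mice. The vertical axes differ and do not start at 0. Srr stands higher after birth with the genotypes overlapping, and Dao lies near the floor of 2.1 (dotted line).

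**Figure D3:**
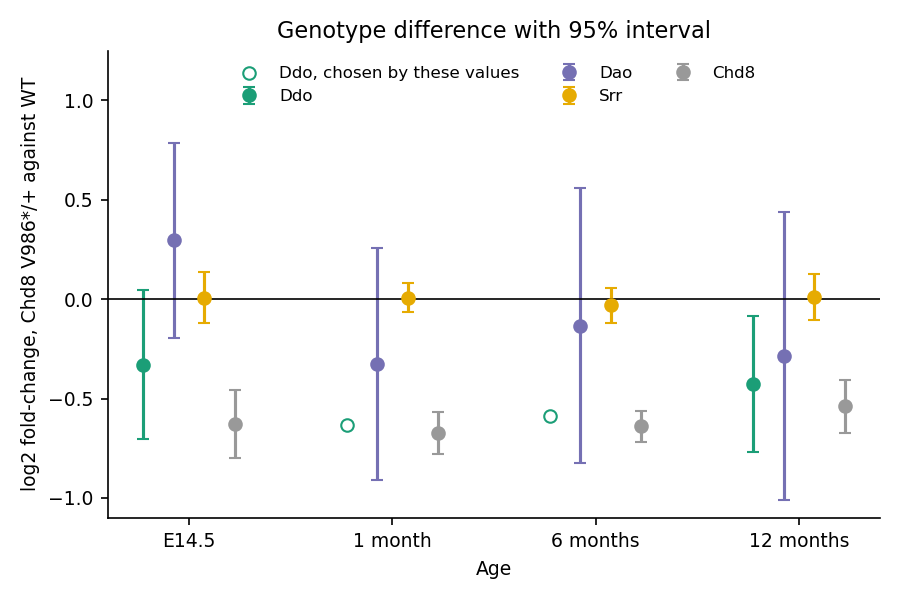
Log2 fold-change of Chd8 V986*/+ against WT (vertical axis) by age for Ddo, Dao, Srr and Chd8, with 95% intervals from limma. Open circles are the 1- and 6-month values of Ddo, which chose the gene and carry no interval. Srr lies at 0 with narrow intervals, and Dao has the widest.

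The genes around these enzymes in metabolism were taken as 8 lists with 91 genes in the table, all of them tested in the WT age course. Between E14.5 and 1 month in WT, 81 of 91 were called, 52 higher and 29 lower, or 89.0% against 85.5% of all genes. Their median log2 fold-change was 0.24 against 0.03 over all genes tested. Aspartate and glutamate metabolism had 11 of 13 genes higher and 1 lower, with a median of 2.0. NMDA receptor subunits had 5 of 7 higher and 1 lower, with a median of 2.1. Transporters of serine, glycine and aspartate had 8 of 14 higher and 5 lower (median 0.57). Of all genes tested, 43.9% were called higher and 41.7% lower over this interval. Serine synthesis and breakdown had 2 of 7 higher and 4 lower (median −0.31), glycine cleavage 3 of 5 higher (median 0.16) and the serine racemase partners 4 of 5 lower (median −0.44). Flavin supply, related oxidases and D-residue enzymes had 6 of 9 higher and 2 lower (median 0.24), and the peroxisome list 17 of 31 higher and 12 lower (median 0.16).

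Grin2c, an NMDA receptor subunit, rose from 4.56 ± 0.25 (SD, n = 6) to 10.73 ± 0.20 (SD, n = 6), the largest rise among the 91 genes at 6.17 on the log2 scale (limma adjp = 1.9e-27). Pex5l, a relative of the peroxisomal import receptor, rose by 5.81 (limma adjp = 9.0e-26). Aspa, which cleaves N-acetylaspartate, rose by 4.86 (limma adjp = 3.0e-21), and Slc1a2, the main astrocyte transporter of glutamate and aspartate, by 4.75 (limma adjp = 1.6e-21). Both of the latter are genes of glia. Sardh, a flavin-dependent sarcosine dehydrogenase, rose by 1.65, Sds, serine dehydratase, by 1.03, and Dld, a subunit of the glycine cleavage system, by 0.48.

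The largest fall was that of Shmt1, the cytosolic enzyme that interconverts serine and glycine, which fell by 2.58 (limma adjp = 4.9e-15). Pipox, a peroxisomal oxidase of sarcosine and pipecolic acid, fell by 2.36, and Slc1a5, a neutral amino acid exchanger, by 2.27. Adsl, adenylosuccinate lyase, fell by 1.01, the receptor subunit Grin3b by 1.03, the scaffold Grip1 by 1.05 and Pex11g, of peroxisome division, by 0.92. From 1 to 6 months in WT, 8 of the 91 genes rose and 9 fell, 18.7% against 14.8% of all genes. Ass1, argininosuccinate synthase, which consumes aspartate, rose the most, by 0.87 (limma adjp = 1.1e-06), and of the called genes Sardh fell the most, by 0.32 (limma adjp = 0.017). From 6 to 12 months, limma called 0 of the 91, against 0.0115% of all genes. Of the 91, 4 had an unadjusted p below 0.05, or 4.40% against 7.40% of all genes tested. In Chd8 V986*/+ mice, 82 of 90 genes were called from E14.5 to 1 month and 24 from 1 to 6 months, or 91.1% and 26.7% against 86.5% and 21.8% of all genes.

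**Figure D4:**
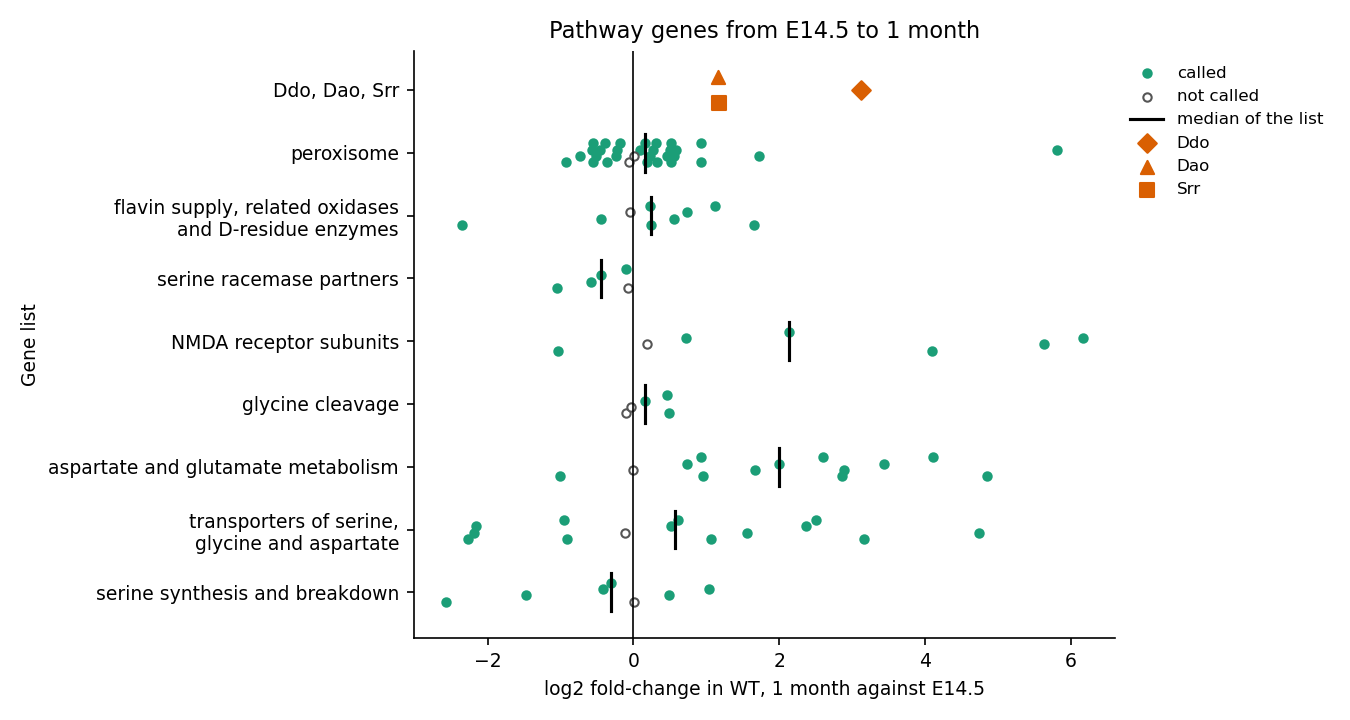
Log2 fold-change in WT cortex from E14.5 to 1 month (horizontal axis) for the genes of each list (vertical axis), with filled points for genes called at adjp below 0.1, open points for the others and a bar at each list's median. The orange symbols are the members, with Ddo at 3.13, Srr at 1.17 and Dao at 1.16.

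None of the pathway genes was called between the genotypes. Of 91 genes tested at E14.5 and 1 month and 90 at 6 and 12 months, limma called 0 at each age. Of all genes tested, 0.00593%, 0.139%, 0.0927% and 0.0463% were called, so this count does not set the pathway genes apart. Those with an unadjusted p below 0.05 numbered 3, 3, 5 and 7. These were 3.30%, 3.30%, 5.56% and 7.78%, against 4.56%, 8.80%, 7.59% and 11.6% of all genes tested. The median log2 fold-changes of the pathway genes were −0.01, −0.01, −0.00 and −0.00. At 1 month, the differences of the tested genes lay between −0.32 for Acaa1b and 0.27 for Slc6a5, and at 6 months between −0.34 for Pex11g and 0.21 for Acox3. At 12 months they lay between −0.42 for Sds and 0.48 for Acox3, a peroxisomal acyl-CoA oxidase (limma adjp = 0.21). Slc6a5 was below the filter on low values at 6 and 12 months, and its differences lay outside the ranges of these ages. Its means in WT and Chd8 V986*/+ mice were 2.25 and 2.54 at 6 months, and 2.70 and 2.26 at 12 months. At E14.5, the differences lay between −1.0 for Slc6a5, the neuronal glycine transporter, and 0.33 for Shmt1. Slc6a5 had means of 3.43 ± 1.46 (SD, n = 6) in WT and 2.43 ± 0.48 (SD, n = 6) in Chd8 V986*/+ embryos. The midbrain and hindbrain markers differed by −1.14 at that age, with WT replicate 5 the highest at 7.44, and their part in the Slc6a5 value was not tested.

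**Figure D5:**
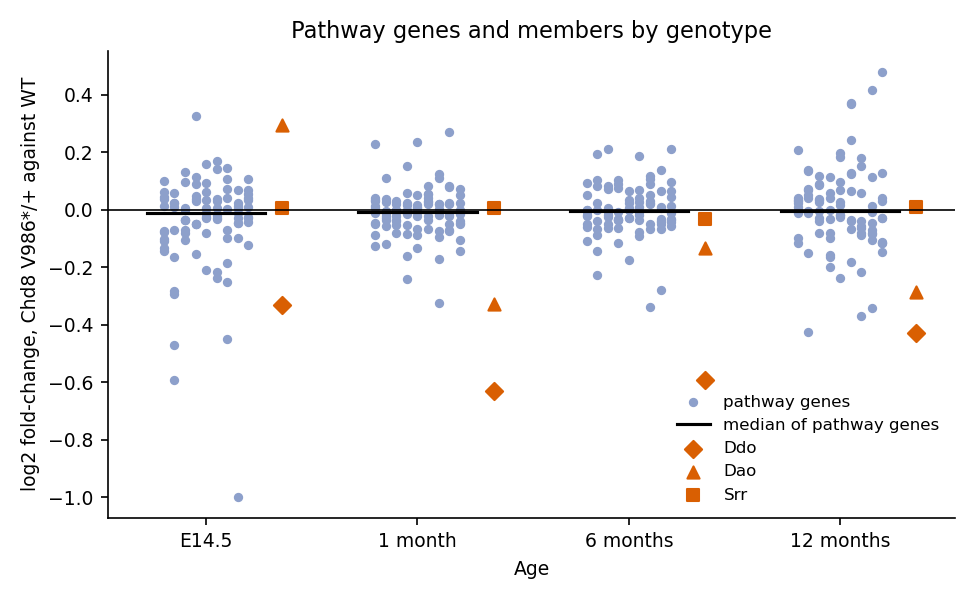
Log2 fold-change of Chd8 V986*/+ against WT (vertical axis) by age for the pathway genes (blue points, 1 per gene, with a bar at their median) and for Ddo, Dao and Srr (orange symbols). The medians lie at 0, and the Ddo symbols at 1 and 6 months, whose values chose the gene, lie at −0.63 and −0.59.

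The annotation has 10 protein-coding genes within 500 kb of Ddo, of which 9 were tested and Slc22a16 was at the floor. None was called at any age. From 0.00593% (E14.5) to 0.139% (1 month) of all genes were called, so this count does not set the neighbours apart from other genes. The nearest, Mettl24, begins 1.44 kb after the end of Ddo, and its log2 fold-changes were −0.09, −0.20, −0.24 and 0.19 at E14.5, 1, 6 and 12 months (limma adjp = 0.99, 0.78, 0.77 and 0.51). Cdk19, Cdc40 and Wasf1, the next nearest of those tested, lay between −0.06 and 0.11 at all ages. The values of Slc16a10, Rpf2, Gtf3c6, Amd1 and Gpr6 lay between −0.39 and 0.32, the widest being those of Gpr6.

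Genes whose expression varied most like that of Ddo were ranked over the 36 postnatal mice after removal of each age's mean, a measure that includes the genotype differences that chose Ddo. Of 16956 genes, Arl2, a small GTPase, had the highest Pearson r at 0.82 (Spearman rho 0.80), followed by Lmcd1 at 0.78 (0.83), Ptgr2 at 0.78 (0.80), Tbrg1 at 0.75 (0.72) and Ttc5 at 0.75 (0.70). The highest 1% of all genes began at an r of 0.56. All of these high genes had lower means in Chd8 V986*/+ mice at 1, 6 and 12 months. At 1 month, Arl2 and Lmcd1 were called, with log2 fold-changes of −0.22 and −0.50 (limma adjp = 0.056 and 0.055), where 0.139% of all genes were called. Their r with Ddo thus includes a genotype difference of their own. The lowest were Col4a3bp at −0.72 (−0.69) and Dcun1d2 at −0.71 (−0.65). Without the 2 mice farthest from their age's mean in Ddo, these 7 values lay between 0.65 and 0.81 for the high genes and were −0.63 and −0.61 for the low ones.

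After removal of group means over all 48 mice, which takes out both genotype and age, the genes most like Ddo among 16307 were Dbi (r 0.72, rho 0.68), Sat1 (0.70, 0.67) and Psme2 (0.69, 0.69). Among those most like Srr were Prkcb (0.85, 0.82) and Arhgap20 (0.83, 0.81). For Dao, whose values are near the floor, they were Cnpy1 (0.57, 0.58), Ccr9 (0.54, 0.51) and 2410018L13Rik (0.52, 0.51).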

How the data were processed

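The authors aligned reads to mm9 with STAR 2.5.2b, quantified transcripts with Salmon 0.11.3 and deposited variance-stabilized (VST) values from DESeq2, on a log2 scale, for 24444 genes and 48 samples. The model corrected for batch, which was not named. Read counts of single genes were not used here, so the reads behind a single value are unknown and precision is given by the SD of 6 mice. The read depth of each sample, listed by the study, entered only as a covariate in an alternative fit.

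Groups came from the sample labels. Genotypes were compared within each age, and adjacent ages within each genotype, with limma 3.58.1 in R 4.3.3 with an intensity trend. Differences of genotype effects between ages came from one fit of all 48 samples. Genes with a mean at least 0.5 above the floor entered, p values were adjusted by the Benjamini-Hochberg method over all of them, and genes were called at adjp below 0.1. The fits were tested on simulated data. Alternatives were other filters and thresholds, limma without a trend or with a robust prior, quantile normalization, median centring, replicate number as a block, replicate set or read depth as a covariate, one fit of all samples, values within replicate sets, Spearman correlation and leaving out each mouse. Members and lists were chosen with earlier results of these data known. Named genes were the members, the called pathway genes, the largest called rise and fall of each pathway list from E14.5 to 1 month in WT and over all lists in the later WT steps, neighbours of Ddo within 500 kb and the genes most correlated with each member, of which 1 is not reported here. Other named genes are extremes, markers or overlapping genes and were chosen after their values were seen. Figures and tables were made with Python 3.11.15, pandas 2.3.3, scipy 1.17.1 and matplotlib 3.10.9.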

Additional observations from a re-analysis of the deposited data

Results flagged for a closer look

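Of 24 groups of 6 mice, 1 for each of Ddo, Dao and Srr at each age and genotype, 2 held a mouse far from the others, and chance gives about 1 in 20. Both concerned Dao. Replicate 5 of the Chd8 V986*/+ mice at 1 month had a Dao expression of 4.44, and the next highest mouse had 3.33. This mouse also had the highest mean of the cerebellum markers in its group, 7.31, with 5.99 in the next, and their part in the value was not tested. Replicate 5 of the WT mice at 6 months had 2.17, the floor of its set of replicates, and the next lowest mouse had 3.08. Of the differences of genotype effects that were tested, 12 months against E14.5 for Ddo and 12 months against each other age for Dao and Srr, limma called none.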

How the results depend on the processing

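Of the age steps, 4 changed their side of the threshold. The Ddo step from 1 to 6 months in Chd8 V986*/+ mice was 0.35 and was not called at adjp below 0.05 (0.085), without a filter (0.11), with a replicate block (0.12) or when all 48 samples were fitted together (0.11). With 1 mouse left out it ranged from 0.28 to 0.41 and was not called in 8 of 12 fits. The fall of Srr over that step in WT was not called at adjp below 0.05 (−0.15) or with samples centred on their median gene (−0.14), and ranged from −0.17 to −0.14 with 1 mouse left out. That of Dao in WT was called with a replicate block (−0.71, adjp = 0.096), and ranged from −0.83 to −0.51 and was called in 2 of 12 fits with 1 mouse left out. The Dao step from E14.5 to 1 month in Chd8 V986*/+ mice ranged from 0.34 to 0.67 and was called in 1 of 12 fits. The causes were not tested.

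Some values that were not called changed sign. Within replicates 4 to 6, the genotype difference of Dao was 0.021 at 1 month and 0.51 at 6 months, and within replicates 1 to 3 that of Srr at 12 months was −0.084. Quantile normalization gave −0.00071 for Ddo in WT from 6 to 12 months and 0.024 for Srr in Chd8 V986*/+ mice, read depth as a covariate gave 0.0092 for Dao in WT, and median centring gave −9.2e-05 and −0.016 for the Srr effect at 12 months against E14.5 and 1 month. With 1 mouse left out, the genotype difference of Srr ranged from −0.023 to 0.038 at E14.5, −0.0045 to 0.023 at 1 month and −0.021 to 0.035 at 12 months, and that of Dao at 6 months from −0.39 to 0.028. From 6 to 12 months, the WT steps ranged from −0.11 to 0.10 for Ddo and −0.18 to 0.17 for Dao, and the Chd8 V986*/+ steps from −0.36 to 0.099 for Dao and −0.033 to 0.0069 for Srr. Effects at 12 months against E14.5 ranged from −0.20 to 0.020 for Ddo and −0.029 to 0.034 for Srr, those against 1 month from −0.16 to 0.24 for Dao and −0.028 to 0.027 for Srr, and that of Dao against 6 months from −0.36 to 0.10. The 12-month genotype difference of Ddo was called in none of the fits, between −0.52 and −0.31, the smallest without WT replicate 6.

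Same-numbered mice of the genotypes had a mean correlation of 0.23 at E14.5 and of −0.034 to 0.045 later. At E14.5, 4 pairs but not all were above 0.1, so the numbers were not treated as pairs. At that age, each Chd8 V986*/+ embryo had a lower Ddo value than the WT embryo of its number. The labels do not tie the numbers to litters, and the share of all genes with such an order was not counted. No genotype difference is therefore read from this order. With a replicate block, Ddo at E14.5 had a limma adjp of 0.42, and the block changed no member's call besides those named. Genes called at E14.5 numbered 1, against 0 without a trend and 100 in one fit of all samples with a replicate block. At 1 month they numbered 24, against 13 with a replicate block and 37 in one fit of all samples, at 6 months 16, against 2 with read depth and 30 with a replicate block, and at 12 months 8, against 2 with a replicate block and 520 in one fit. In WT they numbered 2562 from 1 to 6 months, against 1683 at adjp below 0.05, and 2 from 6 to 12 months, against 0 to 7, and in Chd8 V986*/+ mice 325 over the latter step, against 100 to 371. With 1 mouse left out, the counts ranged from 0 to 2 at E14.5, 3 to 32 at 1 month, 5 to 21 at 6 months and 2 to 251 at 12 months, the last without WT replicate 3, and from 97 to 472 for the latter step in Chd8 V986*/+ mice. A filter at 1.5 above the floor left Dao out of all fits. Of the 5 genes most like Ddo, 3 were also among the top 5 by Spearman correlation.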
